A study of Ovis aries with 2 samples.

Results

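The testis-specific serine kinases are a small family of protein kinases made in male germ cells, and 4 of them carried a symbol among the 27054 genes counted in sheep testis: TSSK1B, TSSK3, TSSK4 and TSSK6. They were chosen by symbol. The data are single-cell 3′ RNA counts, made with droplet barcodes and unique molecular identifiers (UMIs, each standing for 1 captured transcript), from testis tissue of sheep 8 months old. The study compared a ZEA library, labelled with ZEA and the number 0.75 without a unit, with a Control library. Each group was 1 library, so every difference between them is a difference between 2 libraries with no replicate check; no p-value is given, and the intervals printed are exact 95% intervals that cover counting error only. The labels do not spell out ZEA, its route or duration, nor how many animals gave tissue to a library.

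Kinases of this family are known from mouse and human for work after meiosis, when round spermatids build the acrosome and flagellum, exchange histones for protamines and become sperm. Haploid nuclei fall silent late in this process, so messenger RNAs made early are often stored and translated later, and the stage at which an RNA is abundant need not be the stage at which its protein acts. In mice, loss of Tssk1 together with Tssk2, of Tssk3 or of Tssk6 leaves males infertile, and loss of Tssk4 impairs fertility.

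The family members have different known roles. TSSK1B, the human name for the kinase called Tssk1 in mice, binds and phosphorylates the substrate TSKS, which sits around the sperm centrioles and in the chromatoid body. TSSK3 is a small kinase that the kinase PDPK1 activates in vitro. TSSK4 phosphorylates the outer dense fibre protein ODF2 in mouse sperm and was described to act on the transcription factors CREM and CREB. TSSK6 is needed for chromatin condensation in mouse spermatids and depends on the co-chaperone TSACC, which brings it to heat shock proteins of the HSP90 and HSP70 families. The Ensembl identifiers in the files are ENSOARG00000018586 for TSSK1B, ENSOARG00000020944 for TSSK3, ENSOARG00000019183 for TSSK4 and ENSOARG00000007818 for TSSK6. In the RefSeq gene table of sheep assembly ARS-UI_Ramb_v3.0 the model next to TSSK1B is TSSK2. Gene models overlap TSSK1B (DGCR2), TSSK3 (BSDC1 and FAM229A) and TSSK6 (GATAD2A), while none overlaps TSSK4. Reads shared with a near copy or an overlapping gene could not be separated here, and no gene named TSSK2 was analysed.

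The ZEA library held 8809 barcodes with 22148456 UMIs, and the Control library held 7030 barcodes with 53044981 UMIs. After filtering, 8803 ZEA cells with a median of 1406 UMIs and 6804 Control cells with a median of 4159 UMIs were used, and 15 barcode sequences occurred in both libraries. Cells were grouped into 26 clusters without using the 4 kinases, and clusters were named from marker lists. The clusters were close to library-specific: endothelial-like cells numbered 2215 in ZEA and 3 in Control, late spermatocyte-like cells 6 in ZEA and 1012 in Control. Round spermatid-like cells numbered 1181 in ZEA and 1299 in Control, and elongating spermatid-like cells 1022 in ZEA and 1648 in Control. The median depth of round spermatid-like cells was 1720 UMIs in ZEA and 13448 UMIs in Control, and that of elongating spermatid-like cells was 1768 UMIs in ZEA and 7306 UMIs in Control.

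Over all barcodes, TSSK1B had 8651 UMIs in the ZEA library and 60411 in the Control library. TSSK3 had 3172 UMIs in ZEA and 24758 in Control, and TSSK4 had 3423 in ZEA and 13857 in Control. TSSK6 was the least counted member, with 353 UMIs in ZEA and 2752 in Control. Levels below are CPM, the UMIs of a gene per 1000000 UMIs of the summed cells. A 3′ count is not scaled by transcript length and capture differs between genes, so levels are compared for one kinase across cells rather than between kinases.

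The kinases differed in their place along sperm development, and both libraries gave the same order of spermatid stages, while late spermatocyte-like cells were few in ZEA. TSSK4 was abundant in round spermatid-like cells and low afterwards. TSSK1B was abundant in round spermatid-like cells and higher still in elongating ones. TSSK3 and TSSK6 were low in round spermatid-like cells and high late. Of the 4 kinases, 3 were highest in the elongating class among the named classes in both libraries, and TSSK4 was highest in the round class in both.

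In the ZEA library TSSK1B had 513 CPM (492 to 535) in the deep round cluster 18, 689 CPM (643 to 737) in the shallow round cluster 2 and 1074 CPM (1032 to 1118) in the elongating cluster 10. In the Control library it stood at 125 CPM (119 to 132) in late spermatocyte-like cells, the last of the meiotic cells. It stood at 899 CPM (877 to 921) in cluster 9 and 1490 CPM (1468 to 1513) in cluster 5, the 2 main round spermatid-like clusters of Control. The Control elongating spermatid-like clusters 12, 3 and 4 had 1822, 2041 and 2304 CPM. The counting intervals of these clusters did not overlap within either library, and TSSK1B was higher in the elongating than the round clusters listed. The 24 Control cells of elongating cluster 10 had 1190 CPM of TSSK1B, below the level of round cluster 5. Their counting interval was wide and overlapped those of round clusters 9 and 5. The order of Control clusters 3 and 4 in development was not settled. Their stage index, a marker share defined below, was 0.977 and 0.979. The elongating spermatid marker SPEM1 stood at 7580 and 3608 CPM in them.

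TSSK3 followed a later course. In the ZEA library it had 85.7 CPM (77.2 to 94.9) in round cluster 18, 217 CPM (192 to 245) in round cluster 2 and 593 CPM (562 to 626) in elongating cluster 10. In the Control library it had 106 CPM (99.8 to 112) in late spermatocyte-like cells and 150 CPM in each of the round clusters 9 and 5. Listed by rising level, TSSK3 had 533 CPM (519 to 548) in Control elongating cluster 12, 930 CPM (891 to 971) in cluster 4 and 2559 CPM (2493 to 2627) in cluster 3. In both libraries TSSK3 thus became abundant at a later stage than TSSK1B. ZEA round cluster 2 had a median of 1108 UMIs, against 9601 in round cluster 18. For each kinase, the part of depth and of RNA from other cells in the step between these clusters was not tested.

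TSSK4 had an early course. In the ZEA library it had 502 CPM (481 to 523) in round cluster 18, 276 CPM (247 to 307) in round cluster 2 and 75.6 CPM (64.7 to 87.9) in elongating cluster 10. In the Control library it had 47.1 CPM (43.2 to 51.2) in late spermatocyte-like cells, 687 CPM (668 to 707) in round cluster 9 and 479 CPM (466 to 492) in round cluster 5. Control elongating clusters 12, 3 and 4 held 92.7, 66.0 and 37.4 CPM. Round spermatid-like cells held 73.6% of all TSSK4 UMIs of the ZEA library and 80.1% of those of the Control library, against 5.08% and 8.49% in elongating spermatid-like cells of ZEA and Control.

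TSSK6 had the fewest UMIs and was highest late. In the ZEA library it had 4.84 CPM (2.99 to 7.39, from 21 UMIs) in round cluster 18, 23.0 CPM (15.3 to 33.2, from 28 UMIs) in round cluster 2 and 66.7 CPM (56.5 to 78.3, from 150 UMIs) in elongating cluster 10. In the Control library it had 11.8 CPM (9.92 to 13.98) in late spermatocyte-like cells, 21.3 CPM (18.1 to 24.9) in round cluster 9 and 42.2 CPM (38.5 to 46.1) in round cluster 5. Control elongating clusters 12, 4 and 3, listed by rising level, held 71.1, 91.2 and 193 CPM. The elongating clusters listed thus stood above the round ones in both libraries. The 24 Control cells of elongating cluster 10 held 1 TSSK6 UMI, or 26.4 CPM (0.67 to 147), too few to place them.

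**Figure D1:**
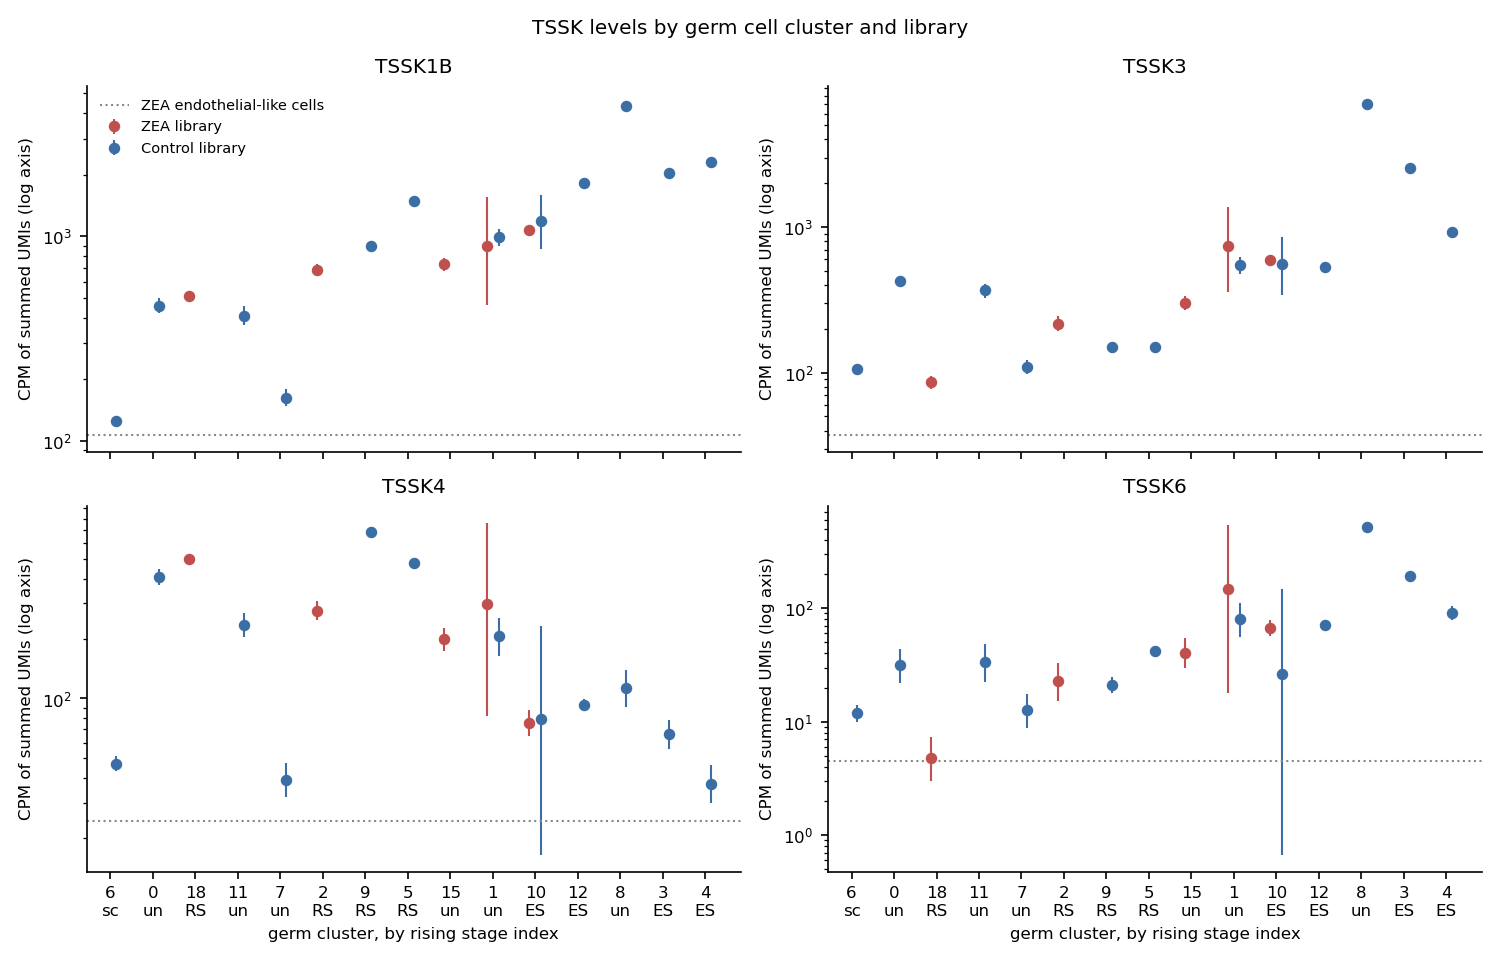
CPM of summed UMIs (log axis) of each kinase in germ cell clusters with at least 20 cells of a library, ordered by rising stage index, with 95% counting intervals; under each cluster number, sc marks late spermatocyte-like, RS round spermatid-like, ES elongating spermatid-like and un unnamed clusters, and the dotted line is the level in ZEA endothelial-like cells. TSSK4 is highest in round spermatid-like cluster 9 at 687 CPM, while the other kinases are highest in unnamed cluster 8.

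The highest levels of 3 kinases lay in a shallow Control cluster that met no class name. Cluster 8 held only 7 ZEA cells, against 506 Control cells with a median of 1165 UMIs. Its leading genes were AZIN2, SPEM2 and SGSM2, and its best-scoring marker list was that of elongating spermatids. In its Control cells TSSK3 had 6977 CPM (6791 to 7166), TSSK1B 4361 CPM (4215 to 4511) and TSSK6 514 CPM (465 to 568), against 113 CPM (90.7 to 140) for TSSK4. TSSK3 ranked 19th and TSSK1B 25th among all genes of this cluster by UMIs, and the 4 kinases together made up 1.2% of its UMIs.

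The late spermatid markers of cluster 8 were split. The chromatin protein genes HMGB4 and TNP1 stood at 2886 and 380 CPM in its Control cells, below the 13099 and 2295 CPM of elongating cluster 3. SPEM1, needed for removal of cytoplasm in mouse spermatids, and OAZ3, a germ cell antizyme, stood at 8918 and 8118 CPM in cluster 8, above the 7580 and 2385 CPM of cluster 3. The 7 ZEA cells of cluster 8 gave 13 TSSK1B, 25 TSSK3, 0 TSSK4 and 1 TSSK6 UMIs. That is 4145 CPM (2682 to 6118) of TSSK3 and 2155 CPM (1148 to 3685) of TSSK1B. Among the 4 other clusterings tried, a cluster with between 99.0% and 99.8% of these Control cells was found each time.

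Germ cell RNA was also counted in cells that should not make it. ZEA endothelial-like cells held 107 CPM of TSSK1B, 37.2 CPM of TSSK3, 24.2 CPM of TSSK4 and 4.55 CPM of TSSK6. Shallower ZEA somatic cells held more per UMI counted: TSSK1B and TSSK3 had 278 and 102 CPM in stromal fibroblast-like, 226 and 79.5 CPM in perivascular-like and 217 and 74.6 CPM in leukocyte-like cells, at medians of 1325, 1488 and 1211 UMIs. Per cell, the ZEA somatic classes held between 0.30 and 0.39 TSSK1B UMIs. ZEA round and elongating spermatid-like cells held 2.60 and 2.56. With each cell thinned to 500 UMIs, TSSK1B was seen in 7.72% of ZEA endothelial-like cells (6.64 to 8.91), against 23.5% of ZEA round (21.1 to 26.0) and 36.4% of ZEA elongating spermatid-like cells (33.4 to 39.4). The unthinned shares were 29.9% of endothelial-like, 63.5% of round and 70.8% of elongating spermatid-like ZEA cells, at median depths of 2471, 1720 and 1768 UMIs. The level of TSSK6 in the round spermatid-like class of ZEA was 8.80 CPM (6.51 to 11.63), against 4.55 CPM (3.15 to 6.36) in endothelial-like cells. Thinned, it was seen in 0.93% of the round cells (0.47 to 1.66) and 0.45% of the endothelial-like cells (0.22 to 0.83), and these intervals overlap.

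The make-up of the kinase UMIs also differed between somatic and spermatid-like cells. In ZEA endothelial-like cluster 19, TSSK1B, TSSK3, TSSK4 and TSSK6 gave 62.0%, 21.6%, 13.8% and 2.55% of the family's 1096 UMIs, and the make-up was close to that in peritubular myoid-like and stromal fibroblast-like cells. The unnamed shallow ZEA cluster 15, with 1566 cells and a median of 612 UMIs, had 57.5%, 23.6%, 15.7% and 3.19%, near the make-up in those somatic cells. Round cluster 2 of ZEA, with 57.2%, 18.1%, 22.9% and 1.91%, lay closer to the somatic make-up than round cluster 18 did. TSSK4 gave 45.4% of the family's UMIs in ZEA round cluster 18 and 4.18% in ZEA elongating cluster 10.

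**Figure D2:**
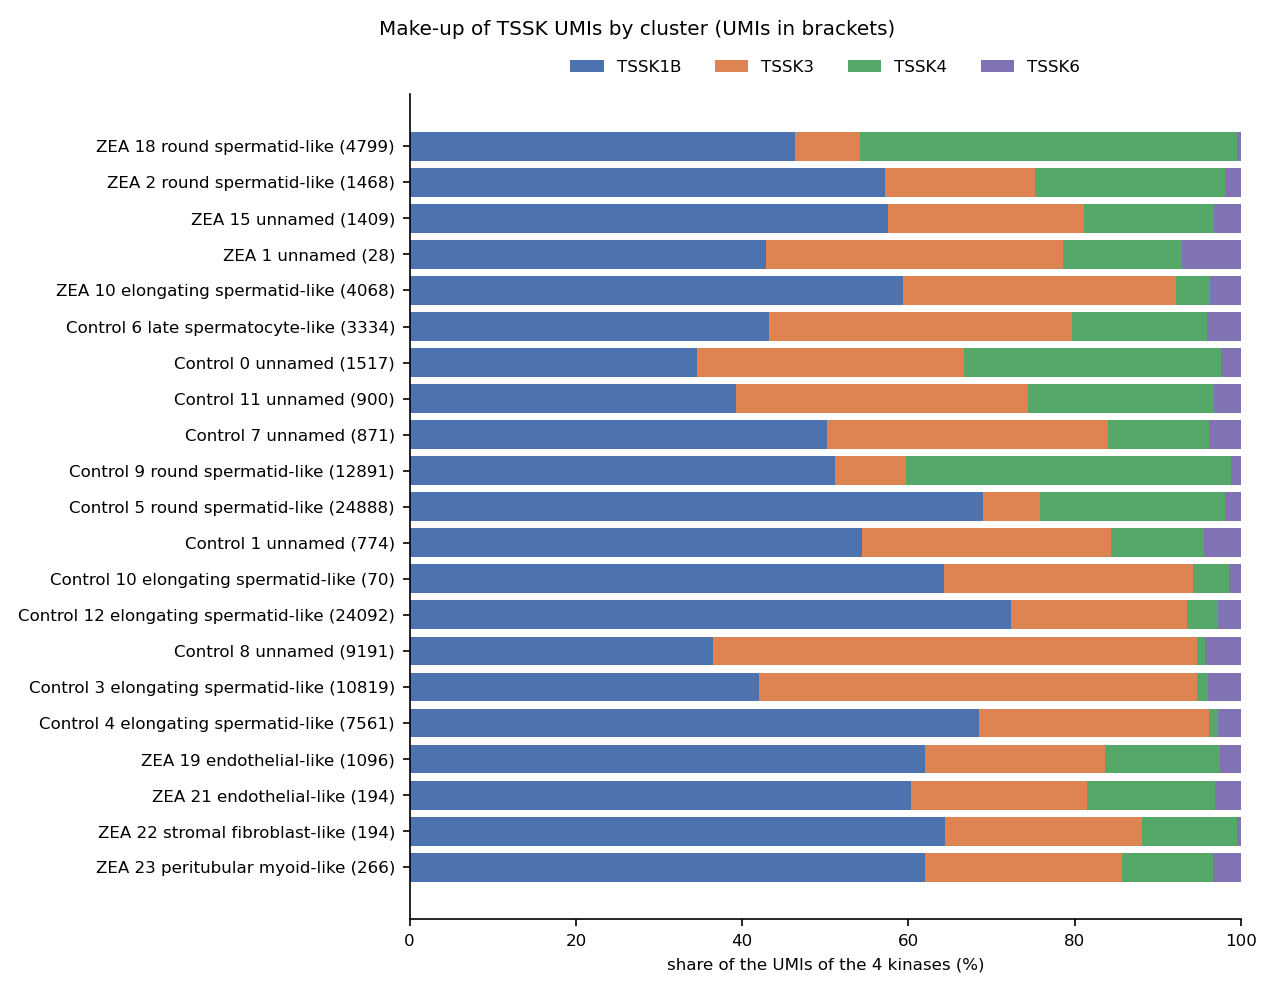
Share (%) of the UMIs of the 4 kinases that each kinase gave, per cluster and library, with the number of UMIs in brackets. TSSK4 takes 45.4% in ZEA round cluster 18 and 39.1% in Control round cluster 9, and TSSK3 takes 58.3% in Control cluster 8, while the ZEA somatic clusters at the bottom resemble each other.

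The only named somatic class of the Control library with at least 20 cells was that of 33 leukocyte-like cells, with 338 CPM (197 to 540) of TSSK1B, 199 CPM (95.2 to 365) of TSSK3, 119 CPM (43.7 to 259) of TSSK4 and 59.6 CPM (12.3 to 174) of TSSK6 at a median of 1334 UMIs. Per cell these were 0.52, 0.30, 0.18 and 0.09 UMIs. Control late spermatocyte-like cells, at a median of 10036 UMIs, held 1.42 TSSK1B, 1.2 TSSK3, 0.54 TSSK4 and 0.13 TSSK6 UMIs per cell. Control round spermatid-like cells held 2.18 TSSK3 and 0.49 TSSK6 UMIs per cell, and Control elongating ones 0.68 TSSK4 UMIs. The depths of these classes differ, and the part of free RNA in their levels was not tested.

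In single deep cells the detection of each kinase differed by cluster, and different kinases could be found in the same cell. With cells of at least 5000 UMIs thinned to 5000, the 382 ZEA cells of round cluster 18 gave TSSK1B in 83.0%, TSSK3 in 33.8%, TSSK4 in 91.9% and TSSK6 in 3.40%. The 48 ZEA cells of elongating cluster 10 gave TSSK3 in 75.0% and TSSK4 in 25%. In Control, TSSK1B was found in 96.8% and TSSK4 in 97.2% of the 529 cells of round cluster 9. TSSK3 was found in 52.0% and TSSK6 in 10.8% of them. In the 644 Control cells of elongating cluster 12, TSSK1B was found in every cell, TSSK3 in 89.8%, TSSK4 in 32.5% and TSSK6 in 32.8%. Control late spermatocyte-like cells gave 46.8%, 42.2%, 21.4% and 7.11% in that order of the kinases.

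Joint detection was near the product of the single shares, the value that independent detection gives. It therefore does not show whether the kinases go together. Where both shares are high, as in cluster 9, the joint share is all but fixed. TSSK1B and TSSK4 were both found in 76.7% of the ZEA cells of cluster 18, where the product of their shares is 76.3%, and in 94.1% of the Control cells of cluster 9, where it is 94.0%. TSSK3 and TSSK6 were both found in 30.1% of the Control cells of cluster 12, where the product is 29.4%. TSSK3 and TSSK4 were both found in 27.0% of these cells, below the product of 29.1%. In Control late spermatocyte-like cells that pair was found in 10.4%, above the product of 9.06%.

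The comparison of ZEA with Control asks whether these levels differed within a stage. In round spermatid-like cells TSSK1B and TSSK6 were at least 2-fold lower in ZEA, and TSSK4 was lower by less. TSSK3 was lower in summed UMIs and higher when each cell had equal weight. In summed UMIs of elongating spermatid-like cells all 4 kinases were lower in ZEA by less than 2-fold. For TSSK4 the counting interval included no difference. With equal weight per cell TSSK1B and TSSK3 passed 2-fold, and TSSK4 was not lower. For TSSK1B the difference in round spermatid-like cells was under 2-fold when cells of like stage index, defined below, were compared.

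TSSK1B in round spermatid-like cells had 552 CPM (532 to 572) in ZEA and 1259 CPM (1243 to 1275) in Control, a log2 ratio of ZEA over Control of -1.19 (-1.24 to -1.14). TSSK6 had 8.80 CPM in ZEA, from 49 UMIs, and 34.0 CPM in Control, from 642 UMIs, a log2 ratio of -1.95 (-2.40 to -1.53). TSSK4 had 452 CPM in ZEA and 560 CPM in Control, a log2 ratio of -0.31 (-0.37 to -0.24). TSSK3 had 115 CPM in ZEA and 150 CPM in Control, a log2 ratio of -0.38 (-0.50 to -0.25); this direction turned, to 0.39 with equal weight per cell and to 0.63 with cells thinned to 500 UMIs. Thus 2 of the 4 kinases were at least 2-fold lower, where 10.5% of the 7685 genes tested in this class were, and 18.3% were at least 2-fold higher. The median log2 ratio was -0.78 over the 4 kinases and 0.25 over all genes tested.

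In elongating spermatid-like cells TSSK1B had 1111 CPM (1069 to 1155) in ZEA and 1932 CPM (1909 to 1955) in Control, a log2 ratio of -0.80 (-0.86 to -0.74). TSSK3 had 603 CPM in ZEA and 917 CPM in Control, a log2 ratio of -0.60 (-0.68 to -0.53). TSSK6 had 67.9 CPM in ZEA and 93.4 CPM in Control, a log2 ratio of -0.46 (-0.71 to -0.22). TSSK4 had 73.8 CPM in ZEA and 79.6 CPM in Control, a log2 ratio of -0.11 (-0.35 to 0.12). None of the 4 passed 2-fold, where 5.02% of 5813 genes tested were at least 2-fold lower and 10.9% at least 2-fold higher. The median log2 ratio was -0.53 over the 4 kinases and 0.14 over all genes tested. These values are from summed UMIs. With equal weight per cell the log2 ratio was -1.08 for TSSK1B, -1.37 for TSSK3, -0.97 for TSSK6 and 0.10 for TSSK4.

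Over all kept cells, 3 of 4 kinases were at least 2-fold lower in ZEA, where 20% of 7442 genes tested were and 22.2% were at least 2-fold higher. TSSK1B had 391 CPM in ZEA and 1140 CPM in Control, and TSSK3 143 CPM in ZEA and 470 CPM in Control. TSSK6 had 15.9 CPM in ZEA and 52.0 CPM in Control, and TSSK4 155 CPM in ZEA and 261 CPM in Control. In such a sum, fewer spermatids and less RNA per spermatid cannot be told apart, and the ZEA library held more somatic cells.

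The classes of the 2 libraries did not hold the same stages. A stage index was taken as the share of late spermatid marker UMIs among early and late spermatid marker UMIs; none of the kinases is among these markers. Pooled over the class, it was 0.58 in ZEA and 0.72 in Control for round spermatid-like cells, and 0.92 in ZEA and 0.95 in Control for elongating ones. Round cells of the ZEA library came from clusters 18 and 2, those of the Control library from clusters 9 and 5, and elongating cells from cluster 10 in ZEA and clusters 12, 3 and 4 in Control. The index markers were also counted in ZEA endothelial-like cells, with a pooled index of 0.84. The part of such RNA in the index of shallow spermatid-like cells was not tested. A like index therefore need not mean a like stage.

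Within spermatid-like cells of like index, TSSK1B was lower in ZEA in each range, by less than in the whole round class. At an index from 0.5 to 0.65, round spermatid-like cells had 554 CPM of TSSK1B in ZEA (473 cells) and 885 CPM in Control (429 cells), a log2 ratio of -0.68 (-0.76 to -0.59). At 0.65 to 0.8 they had 927 CPM in ZEA (262 cells) and 1363 CPM in Control (624 cells), a log2 ratio of -0.56 (-0.65 to -0.46). In elongating spermatid-like cells the log2 ratio was -0.67 (-0.76 to -0.58) at 0.9 to 0.97 and -0.77 (-0.88 to -0.66) at 0.97 or more. TSSK1B was thus within 2-fold in all 4 ranges. Depth still differed: the round cells at 0.5 to 0.65 had a median of 1953 UMIs in ZEA and 12561 in Control. Those at 0.65 to 0.8 had 1520 UMIs in ZEA and 13845 in Control.

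Some of these ratios differed in deeper cells. In round spermatid-like cells of at least 5000 UMIs the TSSK1B log2 ratio was -0.68 at 0.5 to 0.65, as at all depths, and -0.41 at 0.65 to 0.8. In elongating ones it was -0.17 (-0.32 to -0.02) at 0.9 to 0.97, over 21 ZEA and 469 Control cells, and -0.36 (-0.53 to -0.19) at 0.97 or more, over 17 ZEA and 397 Control cells. At this depth TSSK4 had log2 ratios of -0.36 and -0.27 in the round ranges, and -1.19 (-2.41 to -0.20) in elongating cells at 0.9 to 0.97, from 8 ZEA UMIs. TSSK3 had -0.82 and -0.79 in the round ranges, and -0.45 and -0.79 in the elongating ones. TSSK6 had -1.51 and -1.82 in the round ranges, from 14 and 8 ZEA UMIs, and -0.95 (-2.17 to 0.05) and -1.05 (-2.27 to -0.06) in the elongating ones, from 8 ZEA UMIs each. The part of depth in the ratios was not tested beyond this split.

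TSSK4, the early kinase, had 488 CPM in ZEA and 685 CPM in Control round spermatid-like cells at 0.5 to 0.65, a log2 ratio of -0.49 (-0.58 to -0.40), and a log2 ratio of -0.41 (-0.56 to -0.27) at 0.65 to 0.8. Both libraries had little TSSK4 later: elongating spermatid-like cells at 0.9 to 0.97 had 61.7 CPM in ZEA and 80.4 CPM in Control.

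TSSK3, a late kinase, had 634 CPM in ZEA and 785 CPM in Control elongating spermatid-like cells at 0.9 to 0.97, a log2 ratio of -0.31 (-0.43 to -0.19). At 0.97 or more it had 681 CPM in ZEA and 1280 CPM in Control, a log2 ratio of -0.91 (-1.06 to -0.77). In round spermatid-like cells its log2 ratio was -0.50 (-0.70 to -0.29) at 0.5 to 0.65 and -0.22 (-0.50 to 0.06) at 0.65 to 0.8.

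TSSK6 in elongating spermatid-like cells had 73.6 CPM in ZEA and 81.5 CPM in Control at 0.9 to 0.97, a log2 ratio of -0.15 (-0.51 to 0.20). At 0.97 or more it had 70.8 CPM in ZEA and 121 CPM in Control, a log2 ratio of -0.77 (-1.25 to -0.32). In round spermatid-like cells it had only 22 ZEA UMIs at 0.5 to 0.65, a log2 ratio of -1.11 (-1.84 to -0.43), and 15 at 0.65 to 0.8, a log2 ratio of -1.32 (-2.17 to -0.58).

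**Figure D3:**
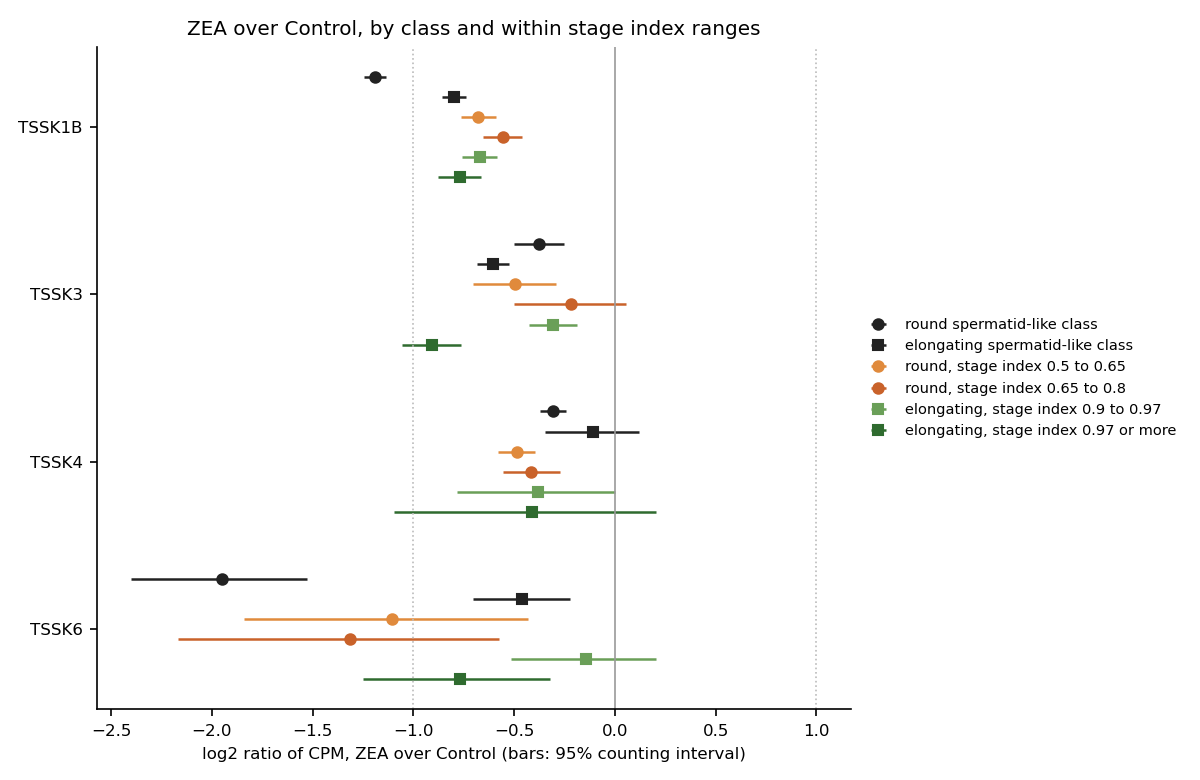
log2 ratio of CPM, ZEA over Control, of each kinase with 95% counting intervals, for the 2 spermatid-like classes (black) and for their cells within ranges of the stage index (colours); dotted lines mark 2-fold. TSSK1B stands at -1.19 for the whole round spermatid-like class and at -0.68 for its cells at an index from 0.5 to 0.65.

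Over all germ clusters, unnamed ones included, the index ranges mix more cell types. At 0.5 to 0.65 late spermatocyte-like cells made up 19.6% of the Control cells, and TSSK1B had 559 CPM in ZEA and 584 CPM in Control, a log2 ratio of -0.06 (-0.14 to 0.02). Below 0.5, 52.2% of the Control cells were late spermatocyte-like. At 0.97 or more, cluster 15 gave 55.3% of the ZEA cells and cluster 8 gave 20.1% of the Control cells, and TSSK3 had 604 CPM in ZEA and 1663 CPM in Control, a log2 ratio of -1.46 (-1.59 to -1.33). Of the germ cells with an index, 1191 of 3669 in ZEA and 2394 of 6608 in Control lay within 0.02 of a border between ranges.

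**Figure D4:**
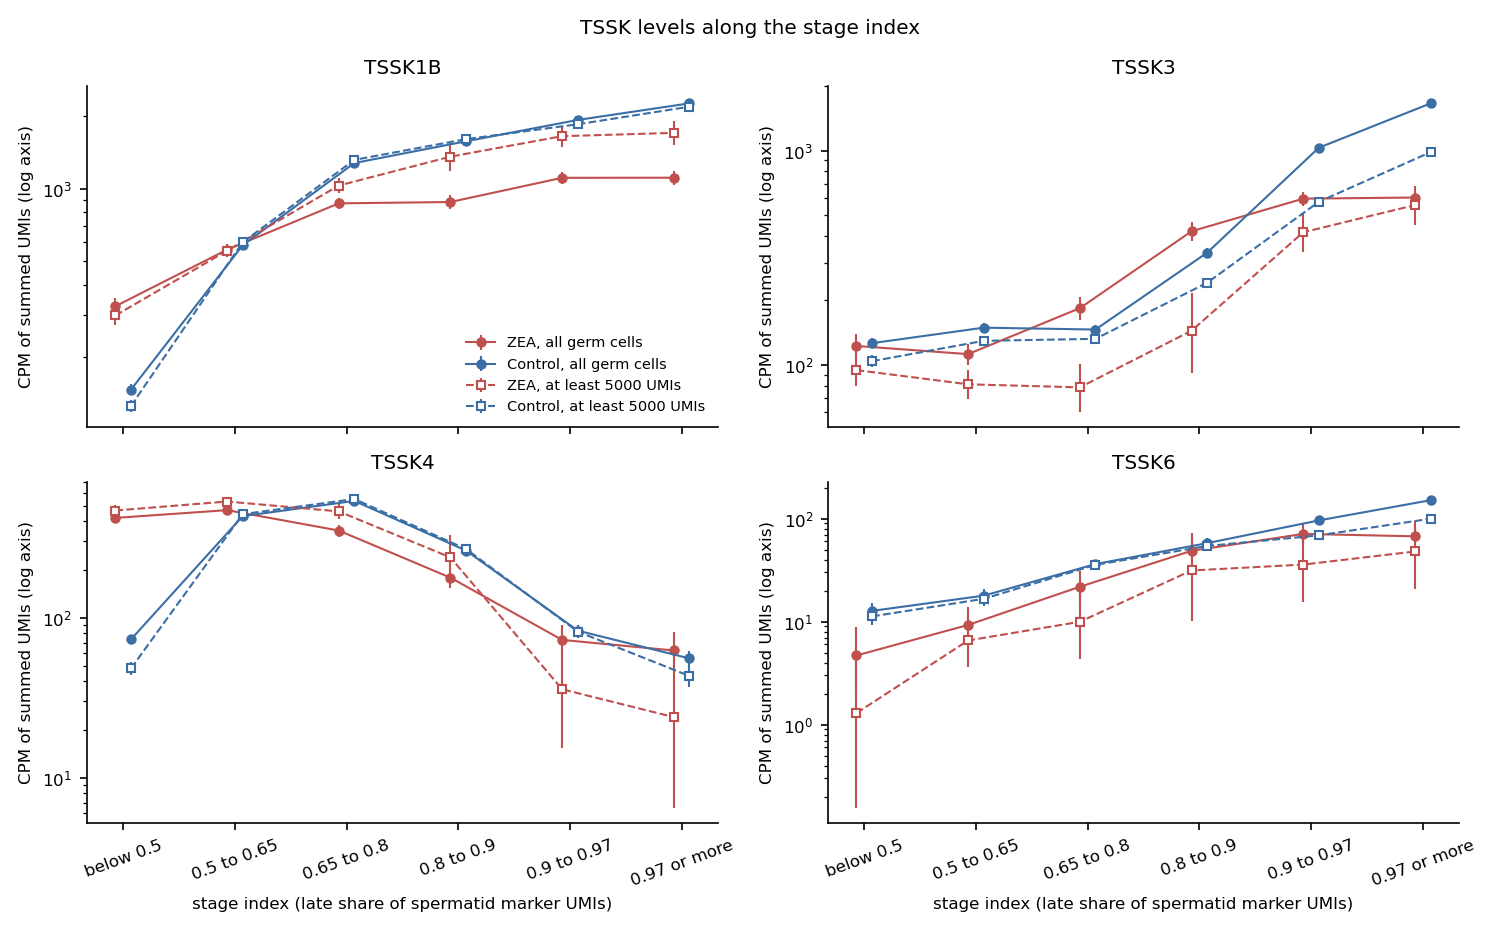
CPM of summed UMIs (log axis) of each kinase in germ cells grouped by the stage index (share of late among early and late spermatid marker UMIs), with 95% counting intervals; filled points are all germ cells and open points cells of at least 5000 UMIs. Cells of all germ clusters are shown: at 0.97 or more the filled points of TSSK1B stand at 1112 CPM in ZEA and 2264 CPM in Control, and TSSK4 is low at this end in both.

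Few clusters held at least 10 cells of both libraries. In elongating cluster 10, with 990 ZEA and 24 Control cells, TSSK1B had 1074 CPM in ZEA and 1190 CPM in Control, a log2 ratio of -0.15 (-0.57 to 0.31), and TSSK3 a log2 ratio of 0.09 (-0.52 to 0.79). In elongating cluster 4, with 13 ZEA and 244 Control cells, TSSK1B had 2187 CPM in ZEA and 2304 CPM in Control, a log2 ratio of -0.07 (-0.37 to 0.20). In elongating cluster 3, with 14 ZEA and 706 Control cells, TSSK1B had a log2 ratio of -0.62 (-1.28 to -0.03) and TSSK3 of -0.34 (-0.87 to 0.13). Clusters group cells by likeness of profile, so these values compare cells already selected for likeness.

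Known partners of the kinases were read from a list of 12 genes, of which 10 had a symbol in the files. In round spermatid-like cells 2 of the 10 were at least 2-fold lower in ZEA and 2 at least 2-fold higher, and in elongating ones 0 were lower and 2 higher. Of all genes tested, 10.5% were lower and 18.3% higher in round, and 5.02% lower and 10.9% higher in elongating spermatid-like cells. The 2 that were lower were PDPK1 and HSPA1L, a testis member of the HSP70 family, named after its values were seen, with a log2 ratio of -1.13 (-1.41 to -0.85). The median log2 ratio of the 10 was 0.05 in round and 0.27 in elongating spermatid-like cells, where that of all genes tested was 0.25 and 0.14.

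TSKS, the substrate of TSSK1B, had 325 CPM in ZEA and 528 CPM in Control round spermatid-like cells, a log2 ratio of -0.70 (-0.77 to -0.63). In elongating ones it was higher in ZEA, with 948 CPM against 675 CPM in Control, a log2 ratio of 0.49 (0.42 to 0.56). In Control clusters TSKS had 47.6 CPM in late spermatocyte-like cells, 400 and 609 CPM in round clusters 9 and 5, and 774 CPM in elongating cluster 12. Control elongating cluster 4 had 744 CPM (709 to 781). TSKS was lower in elongating cluster 3, at 179 CPM, and in cluster 8, at 202 CPM, the clusters in which TSSK3 and TSSK6 were highest.

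TSACC, the co-chaperone of TSSK6, was abundant before its kinase. It had 2718 CPM in Control late spermatocyte-like cells, 3247 CPM in round cluster 9 and 2802 CPM in elongating cluster 12, and 1221 CPM in cluster 8. Between libraries it had 2733 CPM in ZEA and 2979 CPM in Control round spermatid-like cells, a log2 ratio of -0.12, and 1842 CPM in ZEA and 2954 CPM in Control elongating ones, a log2 ratio of -0.68. PDPK1, the kinase that activates TSSK3 in vitro, had 33.2 CPM in ZEA and 80.2 CPM in Control round spermatid-like cells, a log2 ratio of -1.27 (-1.50 to -1.05), and -0.02 (-0.16 to 0.12) in elongating ones. Its Control levels of 28.4 CPM in round cluster 9, 113 CPM in round cluster 5 and 209 CPM in elongating cluster 12 differed by stage.

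The partners at least 2-fold higher in ZEA in 1 or both classes were the heat shock genes HSPA8, HSP90AB1 and HSP90AA1. HSPA8 had 26.8 CPM in ZEA and 1.54 CPM in Control round spermatid-like cells, a log2 ratio of 4.12 (3.54 to 4.75), and a log2 ratio of 4.08 (3.39 to 4.82) in elongating ones. HSP90AB1 had a log2 ratio of 0.96 (0.84 to 1.07) in round and 1.55 (1.26 to 1.83) in elongating spermatid-like cells. HSP90AA1 had 1831 CPM in ZEA and 648 CPM in Control round spermatid-like cells, a log2 ratio of 1.5 (1.46 to 1.54), and 0.26 in elongating ones. Its Control levels differed by stage, with 5941 CPM in late spermatocyte-like cells, 828 CPM in round cluster 9 and 533 CPM in round cluster 5. The part of stage in its ratio was not tested. Over all kept cells HSPA8 had 875 CPM in ZEA and 14.8 CPM in Control, and HSP90AB1 1544 CPM in ZEA and 117 CPM in Control; the part of free somatic RNA in their spermatid values was not tested.

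The genes most like each kinase were ranked by Pearson's correlation of log2(CPM + 1) over 29 sums of cells of a cluster and library. These sums share 2 libraries, differ in depth and carry free RNA, so the values are a description. The genes nearest to TSSK1B were CBY2 (r = 0.98), C17orf107, C13orf46, DCUN1D1 and KIAA0895L. Nearest to TSSK3 were TMEM239 (r = 0.97), NEURL1, GLUL, REEP6 and TPPP2, and nearest to TSSK6 were GLUL (r = 0.94), TMEM239, SPATC1, TSSK3 and ARRDC4. Nearest to TSSK4 were C9orf135 (r = 0.97), FNDC11, SPACA4, ANAPC2 and CCDC197; SPACA4 encodes a sperm acrosome protein and is one of the early spermatid markers of the stage index. Among the kinases, TSSK3 and TSSK6 had r = 0.92, TSSK1B and TSSK3 r = 0.90 and TSSK1B and TSSK6 r = 0.84, while TSSK4 had r = 0.57 with TSSK1B, 0.40 with TSSK3 and 0.39 with TSSK6.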

How the data were processed

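The files used were the deposited gene-by-barcode matrices of UMI counts, 1 per library, not normalized. Per the file headers, Cell Ranger 3.1.0 made the ZEA matrix and 5.0.0 the Control matrix, whereas STAR and Cell Ranger 3.1.0 are the tools in the submitters' processing notes. No source used here gives the genome build. The 4 kinases and all lists were chosen with earlier results of these data known.

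Cells had at least 500 UMIs, 200 genes and at most 20% mitochondrial UMIs. Scrublet (scanpy 1.11.5) marked 2 ZEA (0.0227%) and 205 Control (2.92%) barcodes as doublets, which were left out. With so few calls in ZEA, the caller may have missed doublets there. Both libraries were clustered together (Python 3.11.15, igraph 0.11.9, Leiden resolution 1, 2000 variable genes without the kinases, 30 components). A cluster was named where its mean marker score was at least 1 and led by 0.2, with at least 3 enriched markers; these criteria were set after clusters were viewed. Of 26 clusters 16 were named, and 34.1% of ZEA and 41.0% of Control cells stayed unnamed. A cluster with the Sertoli name was not used, since its leading genes lay outside its marker list.

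Counts were summed per class and library. A gene was tested when the pair of sums held 50 or more UMIs and when 5% of the class cells in 1 library had a UMI; called means past 2-fold. Intervals are exact Poisson for levels, exact conditional binomial for ratios and Clopper-Pearson for shares. The ratio code was tested on simulated data. Stage index ranges, their restriction to a class and within-cluster ratios were chosen after seeing the data; index cells had at least 5 marker UMIs.

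Genes named besides the 4 kinases are TSKS, TSACC, up to 4 further genes per list with at least 200 UMIs and the largest absolute ratio, and the 5 genes most like each kinase. RefSeq was matched by symbol.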

Additional observations from a re-analysis of the deposited data

How the results depend on the processing

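No paired analysis was possible because each group is 1 library. The count of kinases at least 2-fold lower in ZEA round spermatid-like cells, 2 as reported, was 1 with cells thinned to 500 UMIs, at Leiden resolution 0.5, with the kinases allowed among the clustering genes, for class cells within stage index ranges (at all depths and from 5000 UMIs) and over all germ clusters within these ranges from 5000 UMIs, and 0 for all germ clusters at all depths. In elongating spermatid-like cells the count, 0 as reported, was 2 with equal weight per cell, with thinned cells and with unnamed clusters put in their best-scoring class, and 1 within stage index ranges, over all germ clusters at both depths and for class cells from 5000 UMIs. TSSK1B in round spermatid-like cells turned to 0.62 (-0.36 to 1.84) within cluster 2, which held 8 Control UMIs. The cause was not tested. Over all kept cells the count was 3 under all 7 alternatives, but with thinned cells all 4 ratios passed 2-fold (TSSK4 -1.02, TSSK6 -1.84) and 1 kinase missed the entry filter; likewise TSSK6 stood at -1.31 in thinned round cells outside the count of 1. The round TSSK3 log2 ratio turned to 0.39 with equal weight per cell and 0.63 with thinned cells. The elongating TSSK4 log2 ratio turned to 0.10 and 0.04 in these settings. It was 0.43 with unnamed clusters put in their best-scoring class and 0.58 with the kinases allowed among the clustering genes. The count highest in elongating spermatid-like cells was 3 in ZEA under all 12 alternatives and 3 in Control under all but 1, with doublets kept, where it was 2. Over alternatives the round TSSK1B log2 ratio lay between -1.44 and 0.62 and that of TSSK6 between -2.66 and -0.99. The median gene ratio, used as another scale, moved log2 ratios by 0.25 in round and 0.14 in elongating spermatid-like cells. With no filter other than 1 UMI, 1435 genes were at least 2-fold lower in round and 776 in elongating spermatid-like cells, against 809 and 292.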

Other observations

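Other kinases of male germ cells were read beside the family from a list of 11 genes, of which 10 had a symbol in the files; 1 of them, AKAP4, is a kinase anchor of the sperm tail and not a kinase. In round spermatid-like cells 1 was at least 2-fold lower in ZEA (CSNK2A2, named after its values were seen, with a log2 ratio of -1.03, -1.45 to -0.62) and 4 were at least 2-fold higher, with a median log2 ratio of 0.17; of all genes tested 10.5% were lower and 18.3% higher, with a median of 0.25. In elongating spermatid-like cells 0 of the 9 that entered passed 2-fold in either direction, with a median of 0.09, where 5.02% of all genes tested were lower and 10.9% higher, with a median of 0.14.

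The 4 that were higher in ZEA round spermatid-like cells were PRKACA, STK33, STK31 and MAST2. PRKACA, the catalytic subunit of protein kinase A, had 39.7 CPM in ZEA and 15.7 CPM in Control, a log2 ratio of 1.34 (1.08 to 1.59). STK33 had 100.2 CPM in ZEA and 40.8 CPM in Control, a log2 ratio of 1.29 (1.14 to 1.45). STK31 had 51.2 CPM in ZEA and 22.1 CPM in Control, and MAST2 had 22.1 CPM in ZEA and 9.59 CPM in Control. Control levels of these genes fell from late spermatocyte-like cells to round cluster 9 and round cluster 5. In that order STK33 had 305, 60.4 and 28.4 CPM, and STK31 216, 33.0 and 15.2 CPM. PRKACA had 65.5, 27.9 and 7.99 CPM, and MAST2 15.6, 11.2 and 8.60 CPM. The round class had a stage index of 0.58 in ZEA and 0.72 in Control, and the part of stage in these ratios was not tested. In elongating spermatid-like cells STK33 had 27.1 CPM in ZEA and 24.2 CPM in Control, and STK31 had 11.9 CPM in ZEA and 11.2 CPM in Control.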
